A study of Mus musculus with 10 samples.

Results

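The adventitial and universal fibroblast genes are 10 genes that mark the fibroblast progenitors found around vessels and in the fascia of many mouse tissues. They are Pi16, Dpp4, Cd34, Dpt, Clec3b, Gsn, Cd248, Ebf1, Mfap5 and Efemp1. Members were found as probe sets annotated to exactly 1 of these symbols. All 10 genes were measured, by 20 probe sets, among 12394 genes on the array. Where a gene had several probe sets, the one brightest on average across all arrays stands for it. Expression was measured on single-colour Affymetrix arrays, with RNA of sorted mammary cells from FVB/N mice. COF are fibroblasts of wild-type control glands (3 arrays). CAF are cancer-associated fibroblasts (3 arrays), and TEC and CSC are further populations (2 arrays each), all sorted from mammary tumours. The tumour mice carry the genotype label WAPCre-DNbcatn;HGF. It names Cre under the promoter of a milk protein gene, a beta-catenin construct and HGF, so the tumours are driven from the mammary epithelium while COF come from mice without these alleles. CSC stands for cancer stem cells, and 1 label field of the TEC samples reads TEFs. The sorting markers, the age of the mice, and whether an array holds RNA of 1 animal or of a pool are not given in the sources used here. Each p-value thus measures the spread between these samples, which may be technical.

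Fibroblasts that carry Pi16 and Dpp4 sit in the adventitia, the outer sheath of vessels and ducts, and act as progenitors of other fibroblasts and of adipocytes. Dpt and Col15a1 mark the fibroblast states shared by most tissues, and in tumours fibroblasts can leave these states for contractile and matrix-producing ones. None of the 10 genes is found in fibroblasts alone. Cd34 is also carried by endothelium and blood progenitors, Dpp4 by T cells and epithelia, Ebf1 by B cells and adipocyte precursors, and Gsn by many cell types.

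The labels were checked against marker genes. On the COF and CAF arrays the median log2 value over 16 pan-fibroblast genes was 13.43 to 13.78, and on the CSC arrays it was 9.19 and 8.87. TEC replicates 1 and 2 stood apart from each other, at 9.43 and 11.71. The 12 pan-leukocyte genes had a median of 12.91 and 12.51 on these TEC arrays, and the 16 pan-epithelial genes of 8.66 and 9.16. The 3' minus 5' signal of the Actb control, a measure of RNA length, was 0.32 and 0.46 in TEC and 0.59 to 0.76 on the other arrays. That of Gapdh was 0.26 and 0.24 in TEC, 0.29 and 0.30 in CSC, and 0.052 to 0.15 in COF and CAF. In CSC the median was 10.91 and 11.15 for the pan-epithelial genes, 10.34 and 9.63 for the pan-leukocyte genes, and 11.36 to 11.63 for 16 macrophage genes. These blood cell genes were thus measured well above their COF values, at medians of 5.22 to 5.34 for pan-leukocyte and 5.20 to 5.41 for macrophage genes. The difference between the TEC arrays widens the standard errors of fibroblast genes in every comparison of a fit on all 10 arrays. Results between CAF and COF are therefore also given from a fit without both TEC arrays.

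For all 10 genes both fibroblast populations had the highest means and CSC the lowest, with TEC between them. Lowest does not mean unexpressed, since Gsn at 10.22 and 9.98 lay above the upper quartiles of the CSC arrays, 8.78 and 8.83. CAF exceeded CSC in 10 of 10 genes (limma, adjusted p of at most 9.76e-05), where 66.5% of all genes passed, 33.4% as higher and 33.1% as lower in CAF. COF exceeded CSC in 10 of 10 as well (adjusted p of at most 1.43e-04), against 69.5% of all genes, 35.8% higher and 33.7% lower. Every fibroblast array lay above both CSC arrays for all 10 genes, where 82% of all genes did not overlap between CAF and CSC and 80.7% between COF and CSC. The log2 differences of CAF minus CSC ran from 3.33 for Dpp4 to 6.55 for Ebf1, with a median of 5.28 over the 10 genes and of 0.015 over all genes. The Ebf1 difference was the highest of all 12394 genes in CAF minus CSC, and its CSC values lay under the lower quartile of the array, so its size depends on the background. Every CAF array and every COF array lay above both TEC arrays for every one of the 10 genes, where 81.1% of all genes did not overlap between CAF and TEC and 78% between COF and TEC. CAF passed as higher than TEC in 10 of 10 genes, by 1.04 for Dpp4 to 3.78 for Clec3b (67.5% of all genes passed, 38.6% higher and 28.9% lower). COF passed as higher than TEC in 10 of 10, by 1.59 for Pi16 to 4.33 for Clec3b (68.2%, 38.5% higher and 29.8% lower). The order of group means was COF, CAF, TEC, CSC for 6 genes (Dpp4, Cd34, Dpt, Clec3b, Gsn and Ebf1). It was CAF, COF, TEC, CSC for the other 4 (Pi16, Cd248, Mfap5 and Efemp1). In bulk RNA of sorted cells, fewer cells of a type and less RNA per cell cannot be told apart.

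**Figure D1:**
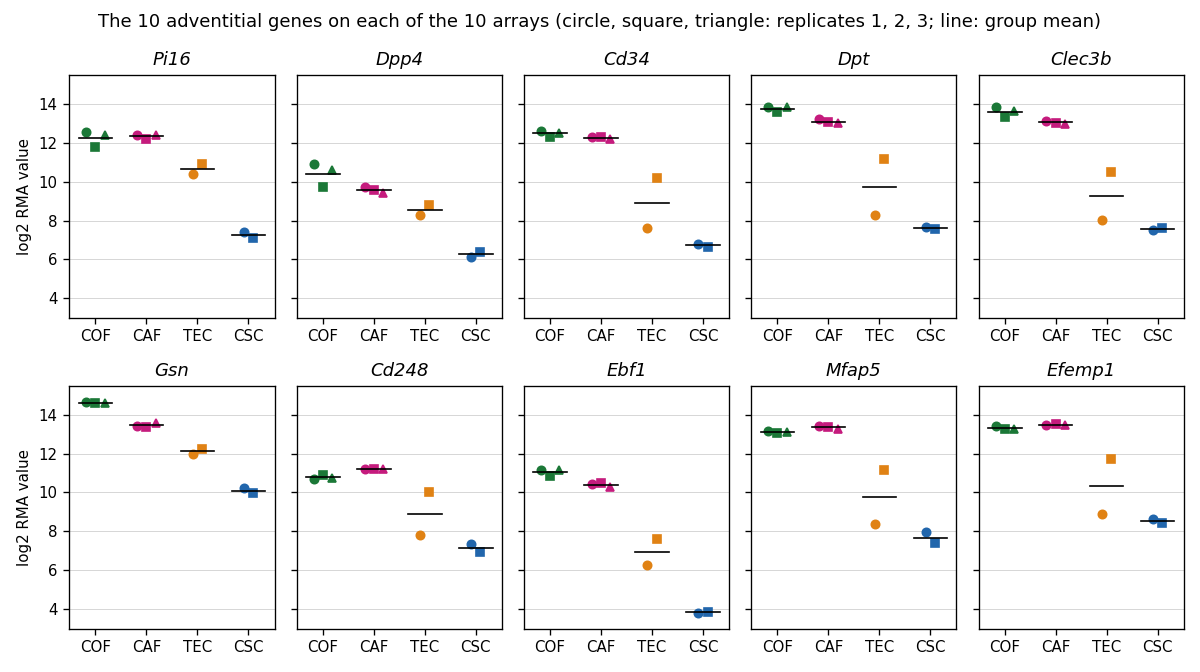
Log2 RMA value (vertical axis) of each of the 10 adventitial genes on every array, by group (horizontal axis), with replicates as symbols and the group mean as a line. All fibroblast arrays lie above both TEC and both CSC arrays in each panel, and the TEC arrays lie close together for Pi16, Dpp4 and Gsn and far apart for most others.

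The comparison of CAF with COF asks whether fibroblasts of the tumour keep the expression of these genes. Gsn and Dpp4 fell in CAF, by 1.15 and 0.83 on the log2 scale, and 0 genes rose (limma on all 10 arrays, adjusted p under 0.05). That is 2 of 10 genes, where 34.8% of all genes passed, 18.1% as higher and 16.7% as lower in CAF. At an unadjusted p under 0.05 the count of genes that were higher was 0 as well. Without both TEC arrays the same 2 genes passed and Dpt, Clec3b and Ebf1 also fell, while Cd248 rose. This made 6 of 10, where 41.1% of all genes passed, 21.7% as higher and 19.5% as lower. Mfap5 passed as higher in a fit on the CAF and COF arrays alone, which made 7 of 10 (45.9% of all genes, 24.5% higher and 21.4% lower). Pi16, Cd34 and Efemp1 passed in none of these 3 fits. The median difference of the 10 genes was -0.38, against 0.018 over all genes. The share of the 10 genes that passed was thus below that of all genes on 10 arrays and above it in the other fits.

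**Figure D2:**
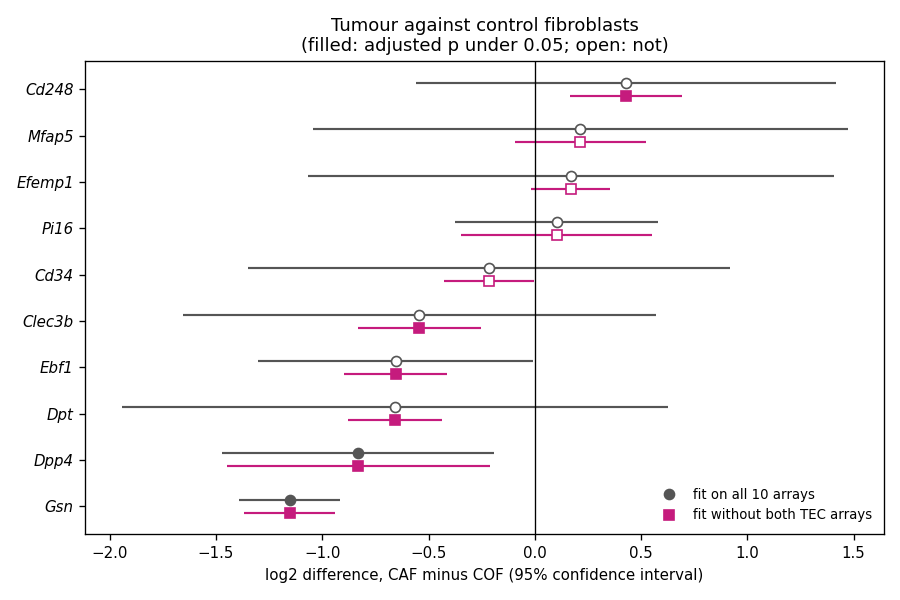
Log2 difference of CAF minus COF (horizontal axis) with its 95% confidence interval for each gene, from the fit on all 10 arrays and from the fit without both TEC arrays. Gsn at -1.15 and Dpp4 at -0.83 are filled in both fits, and Dpt, Clec3b, Ebf1 and Cd248 only in the second, where the intervals are narrower.

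Among the surface proteins, Dpp4 is a membrane peptidase that trims chemokines and hormones, and marks the progenitors at the base of the fibroblast hierarchy. It stood at 10.92, 9.71 and 10.62 on COF replicates 1, 2 and 3 and at 9.72, 9.59 and 9.44 in CAF. COF replicate 2 was as low as CAF replicate 1, so the groups overlapped. Dpp4 was 1.78-fold lower in CAF (-0.83 ± 0.28 on the log2 scale, SE, adjusted p = 0.0475, limma on all 10 arrays), just inside the threshold. It passed in 12 of 24 other settings, with adjusted p-values between 7.70e-06 and 0.245, and not when any 1 of COF replicates 1 and 3, the CAF arrays or the CSC arrays was left out. Without COF replicate 2 the difference was -1.19. The 24 settings are not all separate fits, since leaving out TEC replicate 1, TEC replicate 2 or both gives the same fit here.

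Pi16 encodes a secreted and membrane-bound protein of the cysteine-rich CAP family, and gives its name to the Pi16+ universal fibroblasts. Its values were 12.57, 11.76 and 12.39 in COF and 12.40, 12.22 and 12.41 in CAF. The groups overlapped, and the difference of 0.10 ± 0.21 did not pass (adjusted p = 0.774). Its 95% confidence interval without both TEC arrays was -0.35 to 0.55. The difference changed sign, to -0.14, without COF replicate 2, the array with the lowest value.

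Cd34, a sialomucin of progenitors and vessels, was 12.61, 12.32 and 12.52 in COF and 12.30, 12.29 and 12.21 in CAF. All CAF arrays lay below all COF arrays, yet by only 0.22 on average, which did not pass (adjusted p = 0.802, and 0.0984 without both TEC arrays). Cd248, or endosialin, is a lectin-like receptor of perivascular and tumour stroma. It was 10.71, 10.89 and 10.74 in COF and 11.19, 11.23 and 11.20 in CAF, with no overlap. The difference of 0.43 ± 0.44 did not pass on all 10 arrays (adjusted p = 0.517). Without both TEC arrays the same difference had an SE of 0.11 and passed (adjusted p = 0.0167).

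Among the secreted matrix proteins, Dpt (dermatopontin) binds collagen fibrils and decorin. It was 13.84, 13.60 and 13.82 in COF and 13.21, 13.06 and 13.01 in CAF. All CAF arrays were below all COF arrays, by 0.66 on average. The SE of this difference was 0.57 on all 10 arrays (adjusted p = 0.434) and 0.096 without both TEC arrays (adjusted p = 9.14e-04). Clec3b (tetranectin), which binds plasminogen, was 13.82, 13.32 and 13.65 in COF and 13.14, 13.03 and 12.99 in CAF. Its difference of -0.54 likewise did not pass with an SE of 0.49 (adjusted p = 0.461) and passed without both TEC arrays (SE 0.13, adjusted p = 0.00881).

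Mfap5 and Efemp1 build elastic fibres, Mfap5 as a small glycoprotein of microfibrils and Efemp1 as fibulin-3. Mfap5 was 13.19, 13.08 and 13.12 in COF and 13.41, 13.36 and 13.27 in CAF. Efemp1 was 13.40, 13.25 and 13.29 in COF and 13.48, 13.51 and 13.46 in CAF. Both lay higher in all CAF arrays than in all COF arrays, by 0.21 and 0.17, and did not pass on 10 arrays or without both TEC arrays. In the latter fit their intervals were -0.092 to 0.52 for Mfap5 and -0.016 to 0.35 for Efemp1, so an increase above these bounds is outside the interval.

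Gsn encodes gelsolin, which severs and caps actin filaments and also exists as a secreted plasma form. It had the greatest change of the 10 genes. Gsn was 14.63, 14.58 and 14.63 in COF and 13.43, 13.36 and 13.59 in CAF. The gap between the groups far exceeded the spread within them, an SD of 0.027 in COF and 0.12 in CAF. Gsn was 2.22-fold lower in CAF (-1.15 ± 0.11, adjusted p = 9.58e-05), and 368 of the 12394 genes had lower differences than Gsn. It passed in 24 of 24 other settings, not all of them separate fits, where the difference ranged from -1.43 to -0.94.

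Ebf1 is a zinc-finger transcription factor that in mesenchyme acts in adipocyte and perivascular lineages. It was 11.17, 10.85 and 11.14 in COF and 10.43, 10.49 and 10.27 in CAF, with no overlap. The difference was -0.65 ± 0.29 (adjusted p = 0.113), and without both TEC arrays -0.65 ± 0.11 (adjusted p = 0.00155). In all, 8 of the 10 genes had groups that did not overlap between CAF and COF (5 lower and 3 higher in CAF), where this held for 56.6% of all genes, 26.5% lower and 30.1% higher in CAF.

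Since 1 of the genes encodes a transcription factor, its consensus motif was looked for in the promoters of the others. RefSeq promoter windows on GRCm38.p6, each running from 250 bases before to 50 bases after a transcription start, were at hand for 7 of the 10 genes, and Clec3b, Cd248 and Mfap5 had none. The palindromic EBF motif TCCCNNGGGA, searched on both strands, matched in the window of Dpp4 and in none of those of Pi16, Cd34, Dpt, Gsn, Ebf1 and Efemp1. Of all 32851 windows of this length, 0.904% held it. The Dpp4 window, at chr2:62412182-62412481 on the minus strand, is shown since it alone held the motif and Dpp4 was 1 of the genes that fell in CAF. The match, in capitals, starts 115 bases before the transcription start. It describes the sequence and shows no binding.
Dpp4 promoter: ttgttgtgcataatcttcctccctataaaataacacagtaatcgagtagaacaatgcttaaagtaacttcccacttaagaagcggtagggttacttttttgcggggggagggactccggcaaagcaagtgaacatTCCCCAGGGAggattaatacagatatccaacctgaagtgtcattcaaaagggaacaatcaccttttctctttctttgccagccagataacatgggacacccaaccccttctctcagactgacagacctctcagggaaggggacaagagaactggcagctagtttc

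Of the 10 genes, 5 had further probe sets, which mostly kept the direction of CAF minus COF. For Gsn, 5 of 6 probe sets were lower in CAF, by 0.92 to 1.43, and all 5 passed when every probe set was tested. Of these, the probe set that differed by 0.92 lay under the lower quartile on 5 of 10 arrays, among them every CAF array. The remaining probe set differed by 0.23 (adjusted p = 0.313) and lay under the lower quartile on 9 of 10 arrays. The second probe set of Dpp4 differed by -1.46 ± 0.36 (adjusted p = 0.0123). It separated CAF from COF, with 8.67, 7.03 and 8.22 in COF and 6.71, 6.55 and 6.29 in CAF. The 3 probe sets of Ebf1 differed by -0.79, -0.65 and -0.55, and none of them passed. The second probe sets of Pi16 and Mfap5 differed by 0.28 and 0.43, neither of which passed.

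COF replicate 2 was the lowest COF array for 9 of the 10 genes, all but Cd248, where it was the highest. Over all genes it was lowest in 40.7% and highest in 40.5%. The range over the COF arrays was 1.21 for Dpp4 and 0.81 for Pi16, against a median of 0.21 over all genes, whereas Gsn varied by only 0.049. The same array had the highest median of the 14 activated and myofibroblast genes in COF, 10.54 against 8.18 and 9.49, and in CAF this median was 11.87 to 12.03. Tagln, an actin-binding protein of contractile cells, was 6.98, 9.21 and 8.02 on COF replicates 1, 2 and 3. The matrix protein gene Tnc was 8.06, 11.27 and 9.89. Markers of other cell types differed on COF replicate 2 as well. Its median of the pan-epithelial genes was 5.80 against 5.53 and 5.64, and of the pan-leukocyte genes 5.34 against 5.22 and 5.28. Among the cell type marker lists, pericyte and mural genes and adipocyte genes had their lowest COF median on this array, the other lists their highest. The part of this array's other differences in the results for Dpp4 and Pi16 was not tested.

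Other genes of the adventitial progenitor state also leaned lower in CAF. Of 27 listed, 21 were measured, of which 7 fell, 0 rose and 14 did not pass, with a median difference of -0.40. Over all genes 34.8% passed, 16.7% as lower and 18.1% as higher. Without both TEC arrays 10 fell, 2 rose and 9 did not pass, where 41.1% of all genes passed, 19.5% as lower and 21.7% as higher. These shares of all genes stand beside every list compared between CAF and COF below. Igfbp6, which binds insulin-like growth factor, was 13.10 on each COF array and 12.25, 12.18 and 12.15 in CAF (-0.91 ± 0.14, adjusted p = 0.00129). Limch1 (-1.32 ± 0.22), an activator of non-muscle myosin, and Bmp7 (-0.53 ± 0.095), a BMP ligand, fell as well. Bmp7 was no lower on the TEC and CSC arrays, at 6.73 to 6.91, than in CAF, at 6.43 to 6.69. Smpd3 (-0.79 ± 0.18), a sphingomyelinase, also fell, though its mean in CAF, 5.02, lay under the lower quartile of each of those arrays. The complement regulator Cd55, a surface marker of these cells, differed by 0.36 ± 0.39 (adjusted p = 0.538) and passed as higher without both TEC arrays (adjusted p = 0.0162). Fbn1, Ly6c1 and Ly6a had no probe set with a single symbol and were not analysed here.

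Genes of committed preadipocytes and parenchymal fibroblasts, the states next to the adventitial one, leaned lower in CAF as well. Of 16 measured, 10 fell, 0 rose and 6 did not pass, with a median of -1.04, and without both TEC arrays 13 fell and 2 rose. The 4 with the smallest adjusted p were Apoe (-2.55 ± 0.13), a lipid carrier, Cebpa (-1.43 ± 0.096) and Pparg (-1.87 ± 0.16), the adipogenic transcription factors, and Ggt5 (-1.62 ± 0.15). Col15a1, the collagen that with Dpt marks universal fibroblasts, also fell (-1.15 ± 0.28, adjusted p = 0.0125). Penk, a parenchymal marker that encodes the enkephalin precursor, and the adhesion receptor Vcam1 were the 2 that rose without both TEC arrays, by 1.56 and 0.82. Of the 14 activated and myofibroblast genes, 9 rose, 1 fell and 4 did not pass, with a median of 2.37, and without both TEC arrays 9 rose and 3 fell. Among those that rose, the latent TGF-beta binding protein Ltbp2 (6.51 ± 0.61), Ncam1 (3.05 ± 0.31) and Col8a1 (4.72 ± 0.50) had the smallest adjusted p. The 1 that fell was Tgfbi (-2.72 ± 0.29), and Fap and Thbs2 were the others that passed as lower without both TEC arrays, by 0.55 and 0.39. These lists were set with earlier results of these arrays known and are no independent evidence of a direction. For comparison, 0 of the 16 pan-fibroblast genes passed in either direction on all 10 arrays (limma), with a median of 0.030, and the count at an unadjusted p under 0.05 was 0. Without both TEC arrays 2 of these rose and 5 fell.

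**Figure D3:**
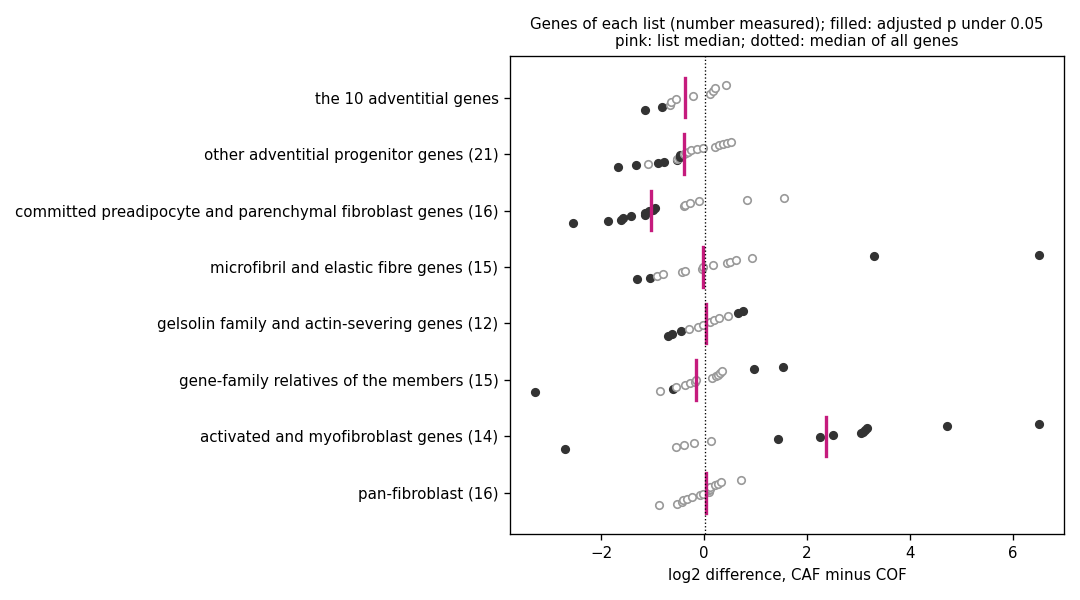
Log2 difference of CAF minus COF (horizontal axis) for every measured gene of each list, with the list's median as a pink bar and the median of all genes as a dotted line, from the fit on all 10 arrays. The adventitial genes have a median of -0.38, the committed preadipocyte and parenchymal genes of -1.04, and the activated genes of 2.37.

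The elastic fibre partners of Mfap5 and Efemp1 were divided. Of 15 measured microfibril and elastic fibre genes, 2 rose, 2 fell and 11 did not pass, with a median of -0.028, and without both TEC arrays 5 rose and 5 fell. Ltbp2 and the fibrillin Fbn2 (3.30 ± 0.71) rose, and Ltbp4 (-1.30 ± 0.23) and the fibulin Fbln7 (-1.05 ± 0.35) fell. Fbln5, another fibulin, differed by -0.80 and Fbln1 by 0.50, neither of which passed. Without both TEC arrays Fbln5 passed as lower (adjusted p = 0.00294) and Fbln1 did not (adjusted p = 0.106). Of 12 actin-severing and monomer-binding relatives of Gsn, 2 rose, 3 fell and 7 did not pass, with a median of 0.042, and without both TEC arrays 3 rose and 3 fell. The gelsolin-family genes Scin, Avil and Vil1 fell by 0.62, 0.45 and 0.70, and profilin Pfn1 (0.65 ± 0.13) and the muscle cofilin Cfl2 (0.76 ± 0.20) rose. Vil1 was 5.43, 5.25 and 5.10 in CAF, near the lower quartiles of those arrays, 5.26, 5.23 and 5.21.

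Among 15 measured gene-family relatives of the 10 genes, 2 rose, 2 fell and 11 did not pass, with a median of -0.16, and without both TEC arrays 2 rose and 4 fell. Crispld1, a CAP-family relative of Pi16, fell (-3.29 ± 0.29, adjusted p = 7.97e-05), as did Pi15 (-0.61 ± 0.12). In the same family Glipr1 (1.52 ± 0.40) and Glipr2 (0.98 ± 0.15) rose. Ebf2 differed by -0.85 and Ebf3 by -0.18, and Fap, the closest relative of Dpp4, by -0.55, none of which passed on all 10 arrays. Without both TEC arrays Ebf2 (adjusted p = 0.0174) and Fap (adjusted p = 0.00398) passed as lower in CAF.

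Within the tumour, CSC were set against TEC to see how the stem cell population differs. All 10 genes were lower on both CSC arrays than on both TEC arrays, where 68.7% of all genes had groups that did not overlap. Of these 9 passed as lower in CSC (46.7% of all genes passed, 20.1% as lower and 26.6% as higher), and Efemp1 did not (-1.78 ± 0.67, adjusted p = 0.0543). Pi16 differed by -3.40 ± 0.26 (adjusted p = 1.94e-05), a 10.5-fold lower level, and 67 of 12394 genes had lower differences. Its second probe set differed by only -0.62 ± 0.24 and did not pass (adjusted p = 0.0639), so the size rests on the choice of probe set. Ebf1 differed by -3.09 ± 0.35 and Gsn by -2.02 ± 0.13. On the CSC and TEC arrays alone 4 of the 10 genes passed, where 3013 of all 12394 genes passed.

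Pi16 was 10.41 and 10.89 on TEC replicates 1 and 2, against 7.41 and 7.10 on the CSC arrays. Gsn was 12.00 and 12.24 against 10.22 and 9.98, and Dpp4 8.27 and 8.82 against 6.13 and 6.38. On these probe sets the 3 genes were above CSC on both TEC arrays. The second probe set of Pi16 was 5.57 and 6.02 in TEC against 5.23 and 5.12 for CSC, just above the CSC lower quartiles of 5.08 and 5.05. That of Dpp4 was 3.68 and 4.27 against 3.51 and 3.61, a difference of -0.42 that did not pass (adjusted p = 0.476). This probe set lay below the lower quartile of all 4 of these arrays. For Pi16 and Dpp4 the height above CSC thus differed between probe sets. For Gsn all 6 probe sets, and for Ebf1 all 3, passed as lower in CSC. On the dimmest 2 Gsn probe sets TEC lay above the fibroblasts as well, at 6.42 and 6.53 against at most 6.01 on one and 4.93 and 5.48 against at most 4.39 on the other. Dpt, by contrast, was 8.26 and 11.17 against 7.68 and 7.55, and Efemp1 8.91 and 11.72 against 8.62 and 8.45. Here TEC replicate 1 lay near CSC and replicate 2 far above it.

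On the log2 distance from the CSC mean to the mean of both fibroblast populations, TEC replicate 1 had covered 62.7% for Pi16, 53.8% for Dpp4, 48.3% for Gsn and 34.9% for Ebf1. For the other 6 genes it had covered 7.78% to 17.3%. TEC replicate 2 had covered 51.1% to 74.3% for all 10. On the second probe sets replicate 1 had covered 15.4% for Pi16 and 3.21% for Dpp4, within or below the range of the other 6 genes, and replicate 2 32.9% and 19.3%. The other Ebf1 probe sets gave 35.9% and 37.2% on replicate 1, and the 3 other bright Gsn probe sets 45.4% to 50.7%. The contrast with the other 6 genes was thus seen on several probe sets for Gsn and Ebf1, and on 1 of 2 for Pi16 and Dpp4. The second probe sets of Pi16 and Dpp4 lay near or under the lower quartile in CSC, which limits what their shares can show. Replicate 2 exceeded replicate 1 by over 1 on the log2 scale in 7 of the 10 genes, as in 14 of 16 pan-fibroblast genes and 5.16% of all genes. This difference was 0.24 for Gsn, 0.48 for Pi16 and 0.55 for Dpp4. With 1 array on each side it has no test. Without TEC replicate 2 the CSC minus TEC difference of Pi16 was -3.16 and that of Gsn -1.90, whereas Cd34 went from -2.19 to -0.91, Dpt from -2.10 to -0.65, Mfap5 from -2.09 to -0.68, Cd248 from -1.76 to -0.66 and Efemp1 from -1.78 to -0.38. Clec3b went from -1.71 to -0.47. Without TEC replicate 1 all 10 genes were lower in CSC, by 2.14 to 3.79. With 1 TEC array left, no spread within TEC enters these fits, so only the sizes are given.

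**Figure D4:**
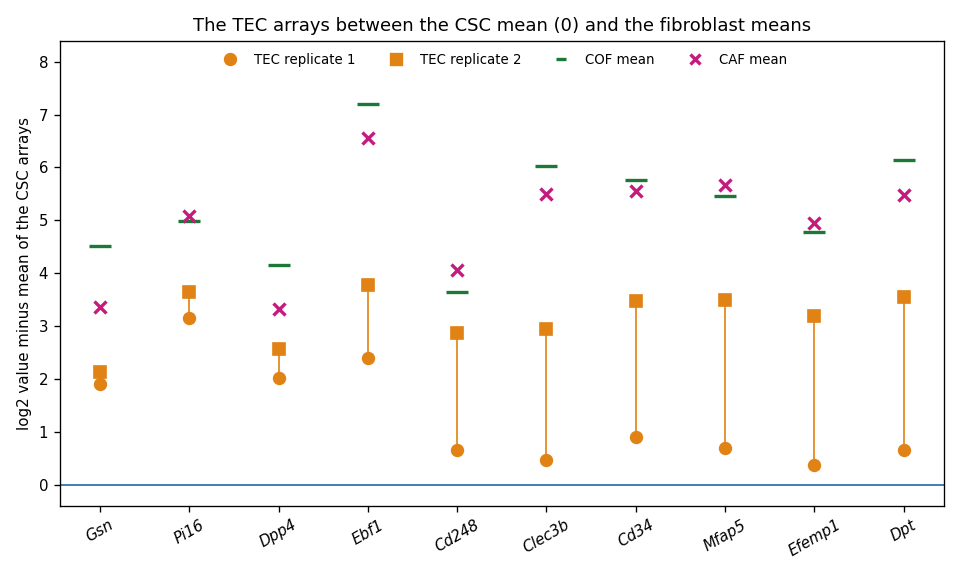
Log2 value minus the mean of the CSC arrays (vertical axis) for each gene, with the TEC arrays as joined symbols and the COF and CAF means as bars and crosses, ordered by the gap between the TEC arrays. The gap is 0.24 for Gsn at the left and 2.91 for Dpt at the right.

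Markers of other cell types moved with these comparisons. The summed level of the 12 pan-leukocyte genes, as log2 of summed linear values, ran from 9.03 to 9.51 on COF arrays and from 10.30 to 11.32 on CAF arrays. It was 16.41 and 15.97 for TEC and 14.12 and 13.55 for CSC. All 12 passed as lower in CSC than in TEC, where 20.1% of all genes did. The 9 mast cell genes summed to 13.54 to 13.85 in TEC and 10.70 to 10.98 in CSC. In TEC this sum rested mainly on Hdc, at 13.64 and 13.16. The median of the 9 differed less, at 7.24 and 7.59 in TEC and 5.76 and 6.34 in CSC, and 7 of them passed as lower in CSC. For B cells, which carry Ebf1, 7 of 8 measured markers passed as lower in CSC than in TEC. Their summed level was 11.85 and 13.59 on TEC replicates 1 and 2, the same order as Ebf1 at 6.25 and 7.63, and 10.51 and 10.20 on the CSC arrays. This order rested on Ighm, which at 11.46 and 13.51 on the TEC arrays lay close to the sum. The median of the 8 B cell markers ran the other way, at 6.999 and 6.58 on TEC replicates 1 and 2. Single markers ran either way, with Ms4a1 at 8.12 and 6.89. The sum thus does not show that B cell markers as a set followed Ebf1. For T cells, which carry Dpp4, 5 of 8 passed as lower in CSC. The part of leukocyte RNA in the TEC levels of Pi16, Dpp4, Gsn and Ebf1 was not tested.

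Between CAF and COF, 8 of 12 pan-leukocyte, 10 of 16 macrophage, 5 of 9 mast cell and 9 of 16 pan-epithelial genes rose in CAF and 0 of these fell. The summed pan-epithelial level ran from 10.03 to 10.76 on COF arrays and from 10.96 to 11.48 on CAF arrays. The pan-leukocyte gene Ptprc was 7.04, 7.35 and 8.88 in CAF against 5.19, 6.57 and 5.78 in COF. The part of these in the lower Gsn and Dpp4 values was not tested. Of the 14 endothelial genes, which bear on Cd34, 1 rose, 2 fell and 11 did not pass. Their sum ran from 10.54 to 11.00 on COF arrays and from 10.20 to 10.34 on CAF arrays. It leaned on Tek, the highest of the 14 on each of these arrays. Their median did not separate the groups, at 5.50 to 6.20 on COF arrays and 5.99 to 6.24 on CAF arrays. The sum thus does not show that endothelial markers as a set were lower in CAF. Kdr (-0.98 ± 0.12) and Esam (-0.47 ± 0.12) fell and Sox18 (0.45 ± 0.080) rose. Tek, the angiopoietin receptor, was 10.28, 9.03 and 10.01 in COF and 8.96, 8.73 and 8.60 in CAF, and passed as lower without both TEC arrays (adjusted p = 0.0246) but not on all 10 (adjusted p = 0.121). The defining endothelial gene Pecam1 was 4.73 to 5.54 over the 6 fibroblast arrays, whose lower quartiles were 5.21 to 5.26. Of the 10 pericyte and mural genes, which bear on Cd248, 3 rose and 1 fell, with a median difference of 0.24. The gene that fell, Abcc9, was 7.95, 6.91 and 7.67 in COF and 6.55, 6.27 and 5.83 in CAF. The pericyte gene Rgs5 went from 7.07, 7.53 and 7.25 in COF to 9.55, 9.98 and 10.11 in CAF, while the mural genes Myh11 and Cnn1 were 5.01 to 5.32 and 4.42 to 4.97 over the 6 arrays.

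**Figure D5:**
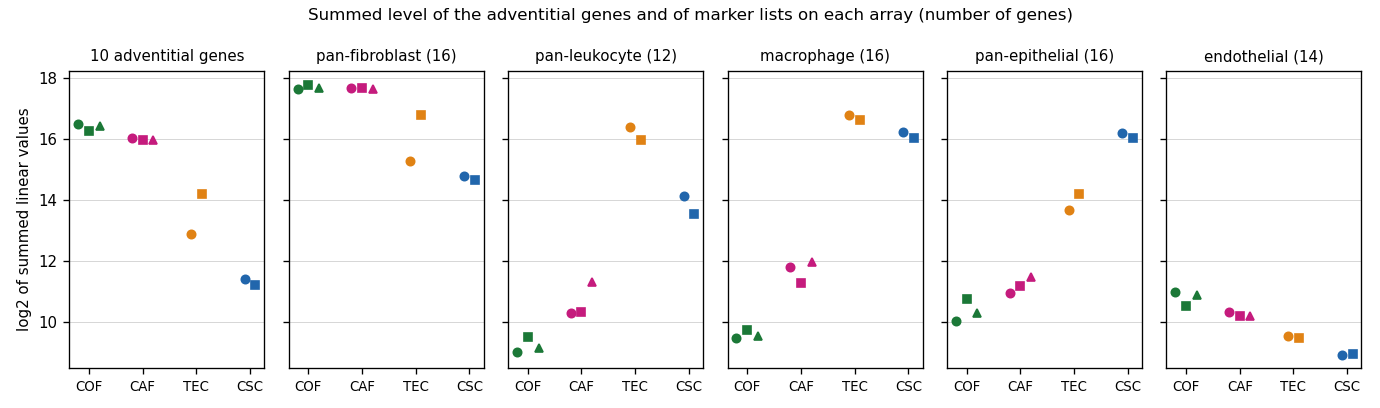
Log2 of the summed linear values (vertical axis) of the 10 adventitial genes and of 5 marker lists on every array, by group (horizontal axis), with replicates as symbols. The adventitial genes sum to 15.97 to 16.50 on the fibroblast arrays, while the pan-leukocyte genes sum to 15.97 and 16.41 in TEC.

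Genes whose pattern over the 10 arrays was most like that of each gene were found by Pearson correlation. Such values mostly reflect the split between the populations, and 505 to 1398 genes had r over 0.9 with a given gene. Clec3b was closest to Fap (r = 0.9998) and Tnxb, and Dpt to Aoc3 and Has1. Cd34 was closest to Serpinf1 and Ccl11, Mfap5 to Bicc1 and Ms4a4d, and Efemp1 to Adamts5 and Meg3. Cd248 was closest to Selenom and Gpx7, and Ebf1 to Rtl8c and Papss2. Pi16 was closest to Slco3a1 (r = 0.998) and Gypc, Dpp4 to Zfp651 and Pde8a, and Gsn to Camk2d and Pla1a, with r of 0.991 to 0.998.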

How the data were processed

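The authors deposited log2 values for 22690 probe sets and 10 arrays. The submitters' processing notes name RMA, a method that corrects background, equalises array distributions and summarises probes. Its version, and whether all arrays were normalized together, are not given in the sources used here. Values were used as deposited, and the number of arrays limits the precision. GEO's platform annotation gave 20393 probe sets 1 symbol, 691 several and 1606 none. Only the first kind was used, and symbols were updated through RefSeq identifiers (12370 of 12394 genes matched).

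Differences were fitted with lmFit and eBayes of limma 3.58.1 (R 4.3.3), group being the single factor, and the scripts were tested on simulated data. Tests were two-sided, with Benjamini-Hochberg adjustment over all genes of a contrast, and an adjusted p under 0.05 passed. Errors are moderated standard errors. The figures were drawn with matplotlib 3.10.9.

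The 10 genes and all lists were chosen with earlier results of these data known. Named genes were the 10, in every list up to 4 genes, ranked by adjusted p in CAF minus COF, a set of landmark genes such as Col15a1 and Ebf2, and the 2 nearest by correlation. Tagln, Tnc, Thbs2, Tek, Ighm, Ms4a1, Myh11, Cnn1, Penk, Vcam1, Hdc and Cfl2 fall outside this rule and were chosen after their values were seen.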

Additional observations from a re-analysis of the deposited data

How the results depend on the processing

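The direction and call of each of the 10 genes held under all alternatives tried for CAF minus CSC, COF minus CSC and COF minus TEC, and in 228 of 230 cases for CAF minus TEC. Between CAF and COF, 2 genes passed. It was 7 on the CAF and COF arrays alone (5686 of all genes) and 6 without both TEC arrays (5100). With array weights, whose estimate did not converge, it was also 6, but 8632 of all 12394 genes passed. The share of the 10 genes was thus below that of all genes with array weights. It was 1 gene with the replicate block (3947), a mean-variance trend and robust prior (4255) or a second quantile normalization (4368). It was also 1 with the closest pairs of arrays averaged (1805) or a threshold of 0.01 (2638). Leaving out 1 COF or CAF array gave 1 or 2 (2980 to 4316 of all genes), and leaving out 1 TEC array gave the same fit as leaving out both. Between CSC and TEC, 9 genes passed. It was 4 on those arrays alone (3013 of all genes) or at a threshold of 0.01 (4086), and 5 with the closest pairs averaged (4875). Leaving out 1 COF or CAF array gave 7 or 8 (5278 to 5873 of all genes). Fits that leave 1 TEC or 1 CSC array hold no spread within that group and are not counted for this contrast. The cause was not tested, beyond the smaller standard errors without the TEC arrays. Pi16 turned sign in CAF minus COF with array weights (-0.094) and without COF replicate 2 (-0.14), within a range of -0.14 to 0.27 with 1 array left out. Over all genes, 4309 passed between CAF and COF, against 1805 with the closest pairs averaged, 8632 with array weights and 2638 at 0.01, and 5786 between CSC and TEC, against 3013 on those arrays alone. The replicate numbers did not pair the samples, as deviations of same-numbered COF and CAF arrays correlated at 0.13, 0.0063 and -0.082. With the replicate block 6 genes passed between CSC and TEC (5365 of all genes). Values under an array's lower quartile, as for Ebf1 in CSC, limit the size of a difference.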
